A study of Mus musculus with 36 samples.

Results

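The genes described here mark Kupffer cells, other macrophages and the machinery that presents antigen, in mouse liver with or without the insulin receptor in hepatocytes. They were given as a list of 42 gene names. Emr1 is an older name of Adgre1, so 41 genes were on the array. The filter asked for a probe well above background on 6 or more of the 36 arrays, and 40 of these genes passed it, among 22916 genes tested. Of these, 39 were well above background on all 36 arrays, so the filter did not select them by group. Gpnmb was just inside it, with 7 arrays, of which 2 were ZT8 controls and 5 were knockouts of the 3 times. Spi1 fell outside it, with 0 arrays, and is not described further.

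The 36 liver RNA samples came from male mice aged 11 weeks, fed chow ad libitum under a 12 h light and 12 h dark cycle. On a C57BL/6J background, the knockouts (IRLKO, also IRhep-/-) carried LoxP sites around the fourth exon of the insulin receptor gene and a tamoxifen-inducible Cre under the transthyretin promoter (TTR-CreTam). The controls (IRLWT, also IRhep+/+) had an intact receptor, and the labels do not say whether they carried Cre. Livers were taken at Zeitgeber time (ZT, hours since the lights came on) 8, 12 or 16, the lights going off at ZT12, with 6 samples per genotype and time and 1 array per sample. The dose and date of tamoxifen are not given in the sources used here, and the labels' treatment field says that the mice were not treated.

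Kupffer cells are the resident macrophages of the liver. They line the sinusoids, take up particles from portal blood through scavenger and complement receptors, and are joined under stress by macrophages made from blood monocytes, which follow Ccl2 through its receptor Ccr2. MHC class II molecules, made by macrophages, dendritic cells and B cells, show peptides to CD4+ T cells, and their transcription needs the coactivator Ciita. MHC class I molecules are made by nearly all cells, hepatocytes included. The Cre of these mice is meant to act in hepatocytes and not in macrophages. In whole liver RNA, more cells of a type and more RNA per cell cannot be told apart.

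All levels below are log2 signals from which the array's own 75th percentile was subtracted (a level of 0 is that percentile), and all differences are log2 ratios of knockout to control fitted with limma. A gene is called when its Benjamini-Hochberg adjusted p over all 22916 genes was under 0.05. Insr itself was lower in knockouts, with ratios of -1.77, -1.88 and -1.65 at the 3 successive times (-0.98, -1.02 and -0.92 with normexp background correction), and no knockout array reached a control level at any time. All 7 hepatocyte markers were well above background on every array. Of them, Alb (log2 ratios -0.41, -0.35 and -0.39) and Ttr (-1.12, -1.02 and -0.97), whose promoter drives the Cre, were lower at all 3 times. In all, 2, 3 and 3 of the 7 were called lower at ZT8, ZT12 and ZT16, and Tat, an enzyme of tyrosine breakdown, was called higher at ZT12 (0.55). Of all genes, 18.7%, 22.7% and 20.1% were called lower at these times.

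The macrophage and antigen presentation genes that passed the test were nearly all higher in knockout liver. Of the 40, 38 had a log2 ratio above 0 at ZT8, as did 38 at ZT12 and 37 at ZT16. Their median was 0.64, 0.87 and 0.78, where the median over all genes tested was 0.01, -0.02 and 0.00. At ZT8, calls were made for 10 of the 40 as higher and 2 as lower (16.7% of all genes were called higher, 18.7% lower and 35.5% either way). At ZT12, 21 were called higher and 2 lower (19.6%, 22.7% and 42.3% of all genes), and at ZT16, 16 higher and 2 lower (20%, 20.1% and 40%). The share called either way, 30.0%, 57.5% and 45.0% of members, was therefore close to that of all genes at ZT8 and ZT16, and the share called higher was 25.0%, 52.5% and 40%. Knockouts lay wholly above controls for 1, 2 and 3 of the 40 genes (6.12%, 8.39% and 9.22% of all genes) and wholly below for 1, 1 and 0 (9.41%, 13% and 10%). The ratios were imprecise, with a median standard error of 0.32 for the members against 0.14 for all genes. The genes called higher at all 3 times numbered 8, namely Cd5l, Itgax, Cd14, Aif1, Laptm5, C1qc, Ccl5 and Ciita (8.91% of all genes were). The genes called at no time numbered 13 (39.6% of all genes), and 12 of those 13 had a ratio above 0 at all 3 times, with Cd163 the exception.

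**Figure D1:**
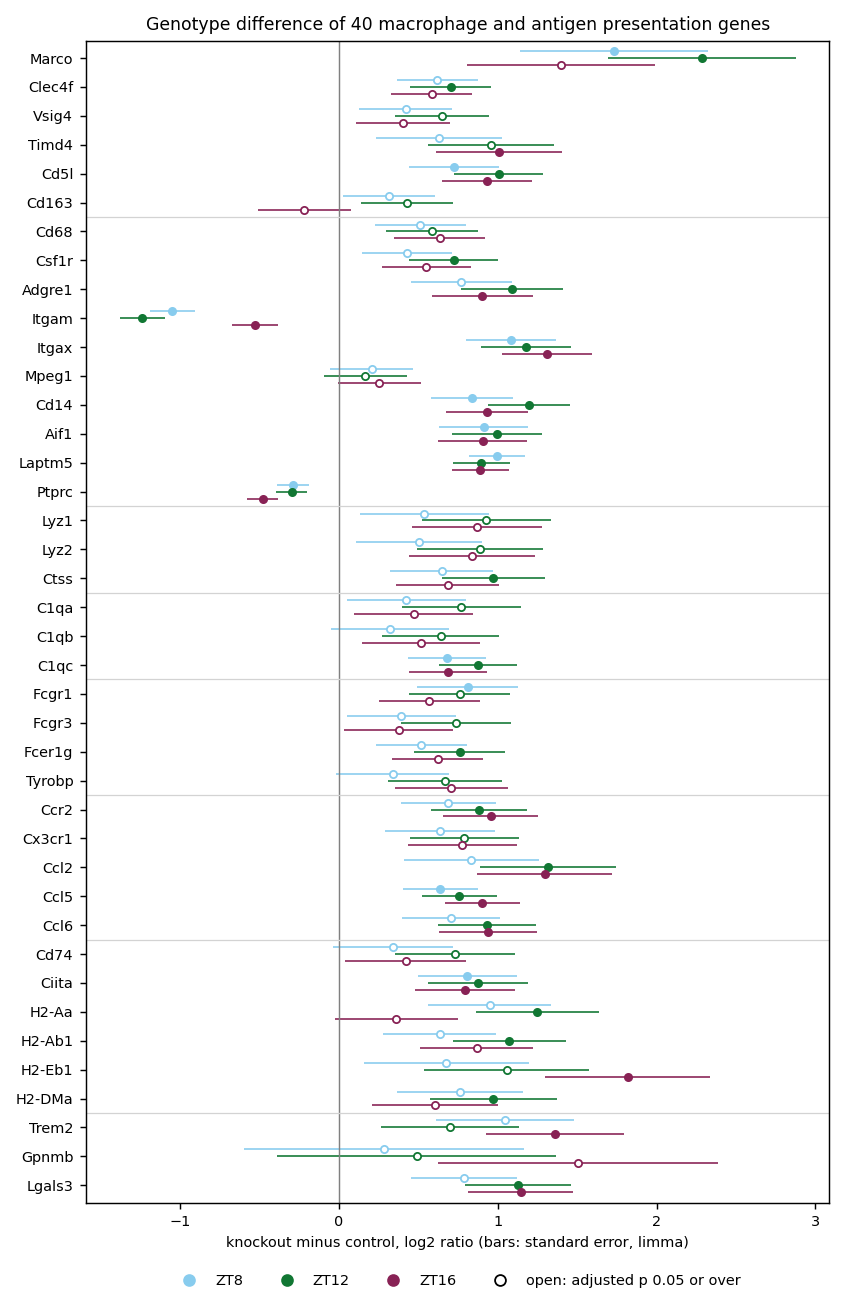
Log2 ratio of knockout to control (x axis, points, with the standard error from limma as bars) for each of the 40 genes (y axis, grouped by role between grey lines) at ZT8, ZT12 and ZT16. Filled points have an adjusted p under 0.05. Most points lie right of 0, and Itgam and Ptprc lie left of it at all 3 times.

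Among receptors of Kupffer cells, Marco, a scavenger receptor for bacteria and particles, had the largest ratios. In controls its level ran from 2.87 through a median of 3.56 to 5.40 at ZT8, from 2.11 through 3.58 to 4.99 at ZT12, and from 2.65 through 3.86 to 6.07 at ZT16. In knockouts it ran from 3.82 through 5.58 to 7.36 at ZT8, from 4.45 through 5.92 to 6.48 at ZT12, and from 4.74 through 4.90 to 7.30 at ZT16. The groups overlapped at each time: 1 knockout lay below the highest control at ZT8 and at ZT12, and 5 of 6 did at ZT16. Its ratio of 1.73 at ZT8 passed (SE 0.59, limma adjusted p 0.022), as did that of 2.28 at ZT12 (SE 0.59, limma adjusted p 0.0024), a 4.87-fold higher fitted signal. At ZT16 it was 1.40 (limma adjusted p 0.059), which did not pass.

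Cd5l, a protein that macrophages secrete and that protects them from apoptosis, was called higher at all 3 times, with log2 ratios of 0.72, 1.00 and 0.93. Its ZT8 call (limma adjusted p 0.046) was lost under 8 of 15 other settings and in 15 of 36 fits without a single array. Clec4f, a lectin found on Kupffer cells, was called higher at ZT12 (0.70), with 0.62 and 0.58 at the other times. Timd4, a receptor for phosphatidylserine on resident macrophages, was called at ZT16 (1.01). Vsig4, the complement receptor, had ratios of 0.42, 0.65 and 0.40 that did not pass. Cd163, which takes up haemoglobin bound to haptoglobin, had ratios of 0.31, 0.43 and -0.22 that did not pass either. A second list of 19 Kupffer identity genes, all tested, held 6 genes called higher and 4 called lower at each of the 3 times, with medians of 0.41, 0.64 and 0.43. Of all genes, 16.7%, 19.6% and 20% were called higher and 18.7%, 22.7% and 20.1% lower. The share of the list called lower, 21.1%, was thus close to that of all genes. Mrc1, the mannose receptor, was called higher at ZT12 (0.75) and ZT16 (0.54). C6, a terminal complement component (-2.41, -2.05 and -1.66), and Pltp, the phospholipid transfer protein (-1.55, -1.30 and -1.29), were lower at all 3 times, and hepatocytes make both proteins as well.

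Pan-macrophage and leukocyte genes gave the smallest p values. Laptm5, a lysosomal membrane protein of blood cells, ran from -1.28 through -1.11 to -0.34 in ZT8 controls and from -0.71 through -0.09 to 0.84 in ZT8 knockouts. At ZT12 it ran from -1.40 through -1.03 to -0.52 in controls and from -0.59 through -0.10 to 0.17 in knockouts, and at ZT16 from -1.68 through -1.05 to -0.60 and from -0.42 through -0.18 to 0.32. The knockouts lay above every control at ZT16, while at ZT8 and ZT12 the highest control lay above the lowest knockout. Fitted ratios were 0.99, 0.89 and 0.89 (SE 0.18 each, limma adjusted p 5.9e-05, 0.00017 and 0.0002), or 1.99-, 1.86- and 1.85-fold.

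Itgax (CD11c), an integrin chain of dendritic cells and of activated macrophages, ran from -3.13 through -2.82 to -2.60 in ZT8 controls and from -2.65 through -1.73 to -0.52 in ZT8 knockouts. At ZT12 the range was -3.52 through -3.08 to -2.47 in controls and -2.35 through -2.09 to -1.05 in knockouts, and at ZT16 it was -3.64 through -3.11 to -2.55 and -2.38 through -1.89 to -0.74. The groups did not overlap at ZT12 and ZT16. The log2 ratios were 1.08, 1.18 and 1.31 (SE 0.28 each, limma adjusted p 0.0034, 0.0013 and 0.00046). With normexp background correction they were 0.64, 0.59 and 0.66 and still passed.

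Cd14, the co-receptor for lipopolysaccharide, ran from -1.71 through -1.21 to -0.76 in ZT8 controls and from -0.97 through -0.41 to 0.70 in ZT8 knockouts. Its range at ZT12 was from -1.66 through -1.35 to -0.53 in controls and from -0.57 through -0.07 to 0.62 in knockouts, and at ZT16 from -1.27 through -1.12 to -0.11 and from -0.37 through -0.13 to 0.73. All 3 pairs of groups overlapped, and every knockout median lay above the highest control at ZT8 and ZT12 but not at ZT16. The knockout to control ratios were 0.84, 1.20 and 0.93 (SE 0.26 each, limma adjusted p 0.011, 0.0004 and 0.0046), and a second probe of the gene also gave called rises at all 3 times.

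Aif1 (Iba1), an actin-bundling protein of macrophages, ran from 1.23 through 1.38 to 2.13 in ZT8 controls and from 1.78 through 2.23 to 3.76 in ZT8 knockouts. At ZT12 it ran from 0.94 through 1.58 to 2.45 in controls and from 1.99 through 2.51 to 3.62 in knockouts, and at ZT16 from 0.65 through 1.27 to 2.15 and from 1.94 through 2.02 to 2.98. In each comparison 1 control array reached into the range of the knockouts. The log2 ratios were 0.91, 0.99 and 0.90 (SE 0.28 each, limma adjusted p 0.012, 0.0052 and 0.011). Adgre1 (F4/80), the classical surface marker of mouse macrophages, was called higher at ZT12 (1.09) and ZT16 (0.90), and Csf1r, the receptor for macrophage colony-stimulating factor, at ZT12 (0.72). Cd68, a lysosomal glycoprotein, had ratios of 0.51, 0.58 and 0.63 that did not pass.

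**Figure D2:**
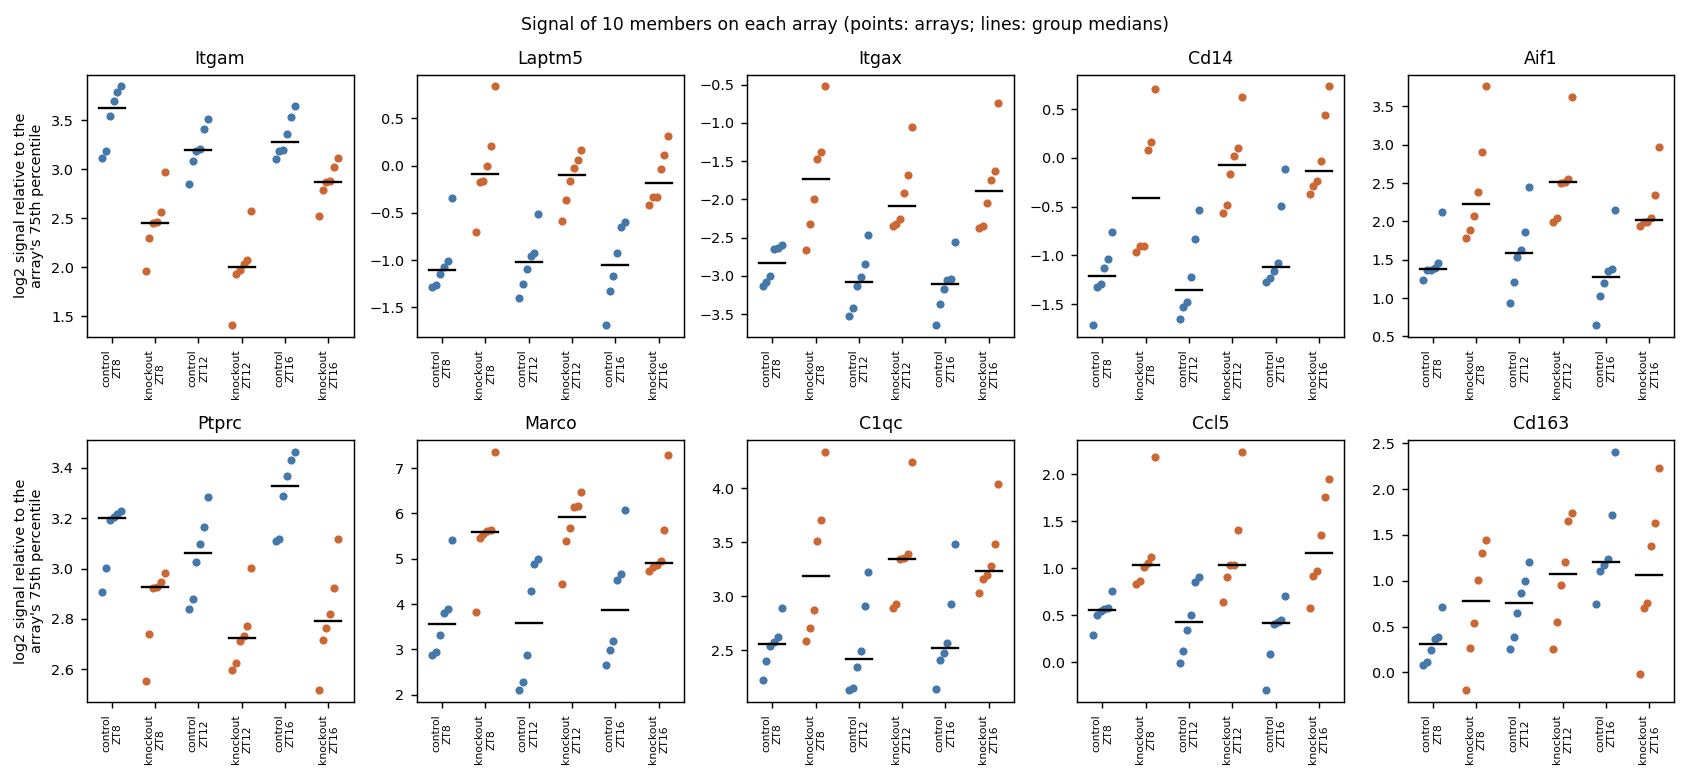
Level of 10 members on each array (y axis, log2 signal relative to the array's 75th percentile) in control (blue) and knockout (orange) groups at the 3 times (x axis), with black lines at the group medians over 6 arrays. Itgax and Laptm5 separate the genotypes at ZT16, and Itgam and Ptprc are the only panels in which the knockout median lies below the control median at all 3 times.

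The 2 genes called lower, Itgam and Ptprc, were read by probes that disagreed with the other probes of the same gene. Itgam encodes CD11b, an integrin chain of myeloid cells, and Ptprc encodes CD45, a phosphatase of all leukocytes. The brightest Itgam probe lies at chr7:135261755-135261814 (mm9, plus strand), and its other kept probe at chr7:135212140-135212199. The brightest Ptprc probe lies at chr1:140020575-140020634 (mm9, minus strand), and the next brightest at chr1:139960089-139960148. A stretch of 30 bases of each 60-base probe are shown because their letters differ in kind: capitals mark runs of alternating bases, CA of at least 8 bases or TA of at least 6.
Itgam, brightest probe, bases 1 to 30: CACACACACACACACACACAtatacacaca
Itgam, other probe, bases 1 to 30: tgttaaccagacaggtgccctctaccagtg
Ptprc, brightest probe, bases 31 to 60: cagatagatttTATATATATgtgTATATAT
Ptprc, next brightest probe, bases 31 to 60: tttcctatgcttaagaccatctttgacttg
The other probes of both genes held no run of 8 or more alternating bases.

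By its brightest probe, Itgam ran from 3.12 through 3.62 to 3.85 in ZT8 controls and from 1.96 through 2.45 to 2.98 in ZT8 knockouts. At ZT12 it ran from 2.85 through 3.20 to 3.52 and from 1.42 through 2.01 to 2.57, and at ZT16 from 3.10 through 3.28 to 3.64 and from 2.52 through 2.88 to 3.11. All knockouts lay below all controls at ZT8 and ZT12. The log2 ratios were -1.05, -1.24 and -0.53 (SE 0.14 each, limma adjusted p 9.0e-07, 3.8e-08 and 0.0037). The other probe, well above background on 33 arrays, gave 0.18, 0.05 and 0.15, none of which passed. The direction for Itgam therefore depends on the probe.

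The array held 49 probes with a CA run of at least 14 bases, each assigned to a different gene, and 47 were tested. These probes were looked up after the values of Itgam were seen, and no test was made of them as a set. The median over these probes was -1.0, -1.15 and -0.52 at the successive times, and 44, 45 and 36 of the 47 were called lower with 0 called higher. The 83 probes with a TG run of at least 14 bases had medians of 1.26, 1.15 and 0.34, and 83, 83 and 58 of them were called higher. In probes with no run of 8 or more bases the medians were 0.01, -0.01 and 0.00. The ratios of the brightest Itgam probe thus lay near the medians of probes that share its repeat, at each time.

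Ptprc by its brightest probe ran from 2.91 through 3.20 to 3.23 in ZT8 controls and from 2.55 through 2.93 to 2.98 in ZT8 knockouts. At ZT12 it ran from 2.84 through 3.06 to 3.28 and from 2.60 through 2.72 to 3.00, and at ZT16 from 3.11 through 3.33 to 3.46 and from 2.52 through 2.79 to 3.12. The groups overlapped at each time. The log2 ratios were -0.29, -0.30 and -0.48 (SE 0.10 each, limma adjusted p 0.021, 0.015 and 0.00025). The next brightest probe gave 0.86, 1.03 and 0.78 (limma adjusted p over all probes 0.0059, 0.001 and 0.011), and the 2 further probes well above background on all arrays were also called higher at all 3 times. Probes with a TA run of at least 8 bases, 92 of them tested, had medians of 0.05, 0.05 and 0.07, so the ratios of the brightest Ptprc probe were not shared by that set.

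With the brightest probe that holds no such run in place of the brightest, an alternative added after the values were seen, no member was called lower. There 11, 22 and 17 of the 40 passed as higher (16.2%, 19% and 19.7% of all genes did), and 40, 40 and 39 had a ratio above 0. Mpeg1, the pore-forming protein of macrophage phagosomes, was another gene whose probes differed: its brightest probe gave 0.21, 0.17 and 0.25 (not passing), and its other probe 0.67, 0.58 and 0.58 (called at all 3 times). For Csf1r the second probe gave -0.40, -0.48 and -0.24 (called lower at ZT8 and ZT12), against 0.43, 0.72 and 0.55 for the first (called higher at ZT12). The 4 probes of H2-Ab1 lay between 0.62 and 0.74 at ZT8, between 1.06 and 1.22 at ZT12, and between 0.61 and 0.91 at ZT16, where 1 of the 4 passed.

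**Figure D3:**
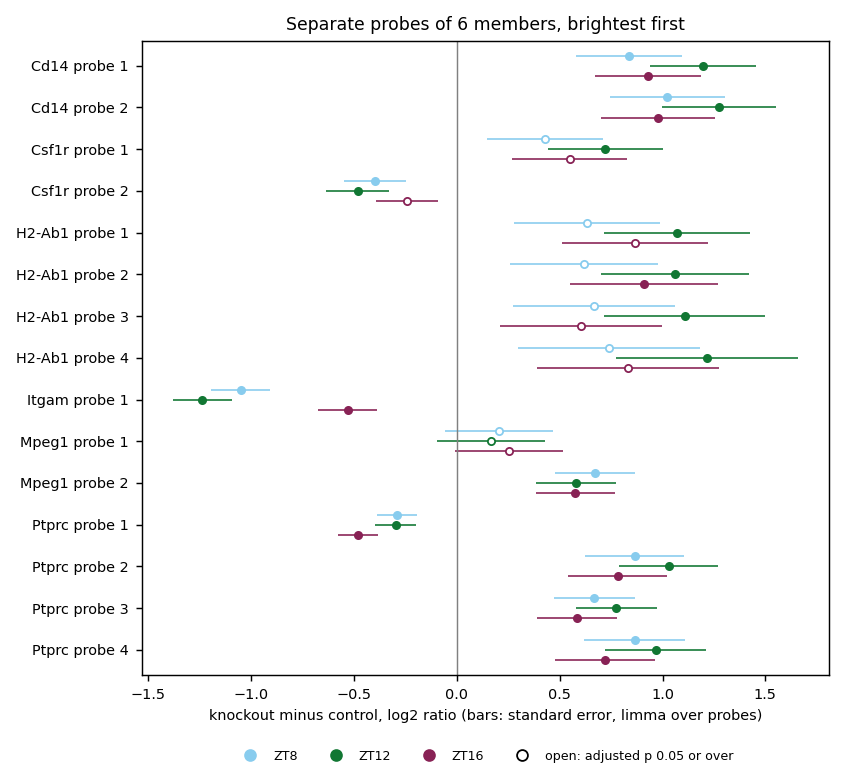
Log2 ratio of knockout to control (x axis, points, with the standard error from limma over probes as bars) for each probe well above background on all 36 arrays of 6 members (y axis, brightest probe first) at ZT8, ZT12 and ZT16. Filled points have an adjusted p under 0.05. The probes of H2-Ab1 and Cd14 lie close together, and the first Ptprc probe lies left of 0 while the other 3 lie right of it.

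Of the 3 lysosomal enzymes 1 was called, at ZT12, and of the 3 C1q chains 1 was called, at all 3 times. Ctss, a lysosomal protease that trims the invariant chain of MHC class II, was called higher at ZT12 (0.97), with 0.65 and 0.69 at the other times. The lysozyme genes Lyz1 and Lyz2 had ratios of 0.54 and 0.50 at ZT8, 0.93 and 0.89 at ZT12, and 0.87 and 0.84 at ZT16, none of them passing. They are near-identical copies, so their probes can share signal and they do not count as separate evidence. The C1q chains start the classical complement pathway and are made in the liver mainly by Kupffer cells. C1qc ran from 2.22 through 2.56 to 2.89 in ZT8 controls and from 2.59 through 3.19 to 4.34 in ZT8 knockouts. At ZT12 it ran from 2.13 through 2.42 to 3.23 and from 2.89 through 3.35 to 4.24, and at ZT16 from 2.14 through 2.52 to 3.48 and from 3.03 through 3.23 to 4.04. All 3 pairs of groups overlapped. Its log2 ratios were 0.68, 0.88 and 0.69 (SE 0.25 each, limma adjusted p 0.03, 0.0048 and 0.026). C1qa (0.42, 0.77 and 0.47) and C1qb (0.32, 0.64 and 0.52) did not pass.

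Fcgr1, the high-affinity receptor for immunoglobulin G, was called higher at ZT8 (0.81, limma adjusted p 0.047) and had 0.76 and 0.57 at ZT12 and ZT16. The ZT8 call was lost under 9 of 15 other settings and in 23 of 36 fits without a single array. Fcer1g, the signalling chain shared by Fc receptors, was called at ZT12 (0.76). Fcgr3, a low-affinity receptor, and Tyrobp (DAP12), an adaptor used by Trem2, were called at no time by their brightest probes, with ratios of 0.34 to 0.74. A second Fcgr3 probe, also well above background on all 36 arrays, gave 0.11, 0.78 and 0.34. It was called higher at ZT12 (limma adjusted p over all probes 0.0051).

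Of the chemokines and their receptors, 4 of 5 were called higher at ZT12 and at ZT16, and 1 at ZT8, where the shares of all genes called higher were 19.6%, 20% and 16.7%. Ccl5, which draws T cells and monocytes, ran from 0.29 through 0.56 to 0.75 in ZT8 controls and from 0.83 through 1.03 to 2.18 in ZT8 knockouts, with no overlap. Its range at ZT12 was from -0.01 through 0.42 to 0.91 and from 0.64 through 1.03 to 2.24, and at ZT16 from -0.30 through 0.42 to 0.70 and from 0.57 through 1.16 to 1.95, with overlap. The log2 ratios were 0.64, 0.76 and 0.90 (SE 0.24 each, limma adjusted p 0.035, 0.01 and 0.0028). Ccl2, which draws monocytes, was called higher at ZT12 (1.32) and ZT16 (1.29), as were its receptor Ccr2 (0.88 and 0.95) and Ccl6 (0.93 and 0.94). The normexp background correction took Ccr2 to 0.27 and 0.28, and neither passed, and took Ccl2 at ZT12 to 0.87, which passed. Cx3cr1, the fractalkine receptor, had 0.64, 0.79 and 0.78 and did not pass. In a further list of 26 macrophage ligands and receptors, 23 were tested. There 8, 8 and 9 were called higher and 1, 2 and 1 lower, where 18.7%, 22.7% and 20.1% of all genes were called lower. Csf2rb, the beta chain of the receptors for GM-CSF and IL-3, was higher at all 3 times (0.68, 0.58 and 0.88), Ccl9 was called higher at ZT8 (0.66) and ZT16 (0.26), and Tnf, an inflammatory cytokine, was lower at all 3 (-1.68, -0.99 and -1.31). Ccr1, Il6 and Il10 were not kept, with at most 5 arrays well above background.

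MHC class II genes were called at different times. Ciita, the class II coactivator, was called higher at all 3 times by its brightest probe, with log2 ratios of 0.81, 0.87 and 0.79. Its calls were close to the threshold (limma adjusted p 0.044, 0.025 and 0.044) and were lost under 10 of 15 other settings at ZT8, 1 at ZT12 and 8 at ZT16. H2-Aa and H2-Ab1, the alpha and beta chains of I-A, were called higher at ZT12 (1.25 and 1.07). H2-DMa, a chain of the molecule that loads peptide, was called at ZT12 (0.97, limma adjusted p 0.0489), a call lost under 8 of 15 other settings and in 25 of 36 fits without a single array. H2-Eb1, the beta chain of I-E, was called at ZT16 (1.82, SE 0.52, limma adjusted p 0.0058). Cd74, the invariant chain that guides class II through the cell, had 0.34, 0.73 and 0.42 and did not pass. Of the other class II and processing genes, 8 of 10 were tested, and 3, 3 and 5 were called higher (16.7%, 19.6% and 20% of all genes were). Lgmn, an endosomal protease, was higher at all 3 times (0.63, 0.80 and 0.74), as was H2-Ob (0.63, 0.55 and 1.05), a chain of the inhibitor of peptide loading. Rfxank, a subunit of the RFX factor that binds class II promoters, was lower at ZT8 (-1.13) and higher at ZT16 (0.95), with -0.11 at ZT12.

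The size of the H2-Eb1 ratio at ZT16, though not its call, leaned on 1 array. This gene was singled out here after its values were seen. Control ZT16 replicate 2 had a level of -1.53, where the other 5 controls of that time lay between 1.11 and 2.47 and the knockouts between 2.67 and 3.63. Without it the log2 ratio was 1.26 and still passed. The same array had the lowest Trem2 level of its group, -3.84 against -2.02 to -0.99, and the highest level in its group of 35 of the 39 members well above background on every array. Without it the Trem2 ratio at ZT16 was 0.98.

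Promoter sequence was at hand for 30 of the 41 genes (RefSeq, GRCm38.p6, 250 bases before to 50 after each annotated start). It is shown for the class II genes H2-Aa and H2-Eb1, which hold the Y box of class II promoters, the site of the factor NF-Y, and which were chosen for display after their values were seen, outside the rule for named genes. The search was for CTGATTGG on both strands (CCAATCAG on the other). The last 120 bases before the start follow, with the match in capitals.
H2-Aa, chr17:34287824-34287943, minus strand: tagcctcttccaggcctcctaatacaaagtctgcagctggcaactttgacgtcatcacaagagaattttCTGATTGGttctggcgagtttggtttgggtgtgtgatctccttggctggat
H2-Eb1, chr17:34305747-34305866, plus strand: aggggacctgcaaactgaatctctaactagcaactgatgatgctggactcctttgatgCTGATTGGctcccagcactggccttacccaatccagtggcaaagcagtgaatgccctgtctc
The match began 51 bases before the start in H2-Aa and 62 in H2-Eb1. These 2 were the only members with it, and 4.1% of all 32851 promoter windows held it. GAGGAA or TTCCTC, the core of sites for PU.1, the factor that Spi1 encodes, was in the windows of 14 of the 30 members, including Marco, Cd5l, Laptm5, Aif1 and C1qc, and in 28.3% of all windows. A member was counted if any of its windows held the match, whereas the percentages are of single windows. The counts and percentages are therefore not directly comparable. A match describes letters in a window of 300 bases and not a bound site.

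MHC class I and its processing genes, 16 listed and all tested, were called lower more often than higher. At ZT8, 2 were called higher and 7 lower, at ZT12 0 and 7, and at ZT16 1 and 10, with medians of -0.20, -0.26 and -0.35. Of all genes, 16.7%, 19.6% and 20% were called higher and 18.7%, 22.7% and 20.1% lower. H2-K1, a class I heavy chain, was lower at all 3 times (-0.45, -0.55 and -0.58), as were B2m, the light chain of class I (-0.63, -0.60 and -0.74), and Erap1, the aminopeptidase that trims peptides in the endoplasmic reticulum (-0.23, -0.47 and -0.70). The difference between class I and class II as lists was not tested.

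**Figure D4:**
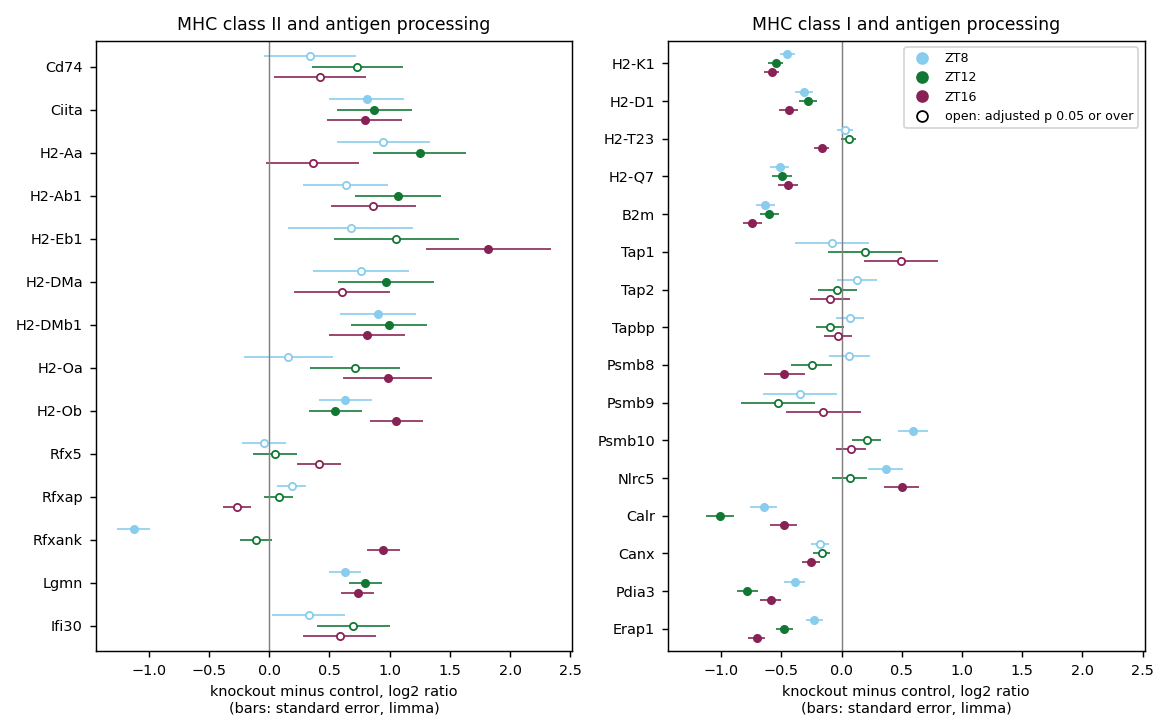
Log2 ratio of knockout to control (x axis, points, with the standard error from limma as bars) for MHC class II genes (left) and MHC class I genes (right) with their processing factors (y axis) at ZT8, ZT12 and ZT16. Filled points have an adjusted p under 0.05. H2-Aa, H2-Ab1 and H2-Eb1 lie right of 0 at all times, and H2-K1, H2-Q7 and B2m lie left of it.

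Of the genes of lipid-associated macrophages, Lgals3 (galectin-3) was called higher at ZT12 (1.13) and ZT16 (1.14), and Trem2, a lipid-sensing receptor, at ZT16 (1.36), with 1.05 and 0.70 at ZT8 and ZT12. Gpnmb, a lysosomal glycoprotein, had ratios of 0.28, 0.49 and 1.51 that did not pass and was not well above background on most arrays. In a further list of 11 such genes, 5, 4 and 5 were called higher and 0, 2 and 0 lower. Of all genes, 16.7%, 19.6% and 20% were called higher and 18.7%, 22.7% and 20.1% lower. Lpl, the lipase that cleaves circulating triglyceride, was higher at all 3 times (2.47, 2.61 and 4.04), as were Cd9, a tetraspanin (0.45, 1.11 and 1.55), and Ctsl, a lysosomal protease (0.35, 0.56 and 1.00). These genes are not limited to macrophages.

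The members varied together from sample to sample. Over the 39 genes well above background on every array, the mean level in ZT8 knockouts was 0.58, 0.63, 2.22, 1.69, 0.63 and 1.58 in replicates 1 to 6. In replicates 3, 4 and 6 respectively 36, 36 and 37 of the 39 genes lay above their group median, and in replicates 1, 2 and 5 only 0, 5 and 3 did. The ZT8 controls ranged from 0.38 to 0.80, so the knockouts with the lowest means overlapped them. Among ZT12 knockouts the mean ran from 0.71 to 2.20, with replicate 6 highest in 29 of the 39 genes, and in ZT16 knockouts from 0.91 to 2.00, with replicate 2 highest in 22. The controls ran from 0.13 to 1.24 at ZT12 and from 0.22 to 1.28 at ZT16, and control ZT12 replicate 1 and control ZT16 replicate 2 were highest in 31 and 35 genes. The genes within a sample are thus not independent of each other, and a count of genes called does not equal that many separate observations. Without knockout ZT8 replicate 3, 5 members were called at ZT8 in place of 12, while 36.1% of all genes were called in place of 35.5%. The calls lost were those of Cd5l (0.56), Aif1 (0.65), C1qc (0.47), Fcgr1 (0.56), Ccl5 (0.46), Ciita (0.43) and Ptprc (-0.23). Without knockout ZT8 replicate 1, 20 were called. Without knockout ZT12 replicate 6, 15 were called at ZT12 in place of 23, with 40.2% of all genes in place of 42.3%. The calls lost were those of Clec4f (0.51), Csf1r (0.53), Ctss (0.69), Fcer1g (0.53), Ciita (0.59), H2-Aa (0.90), H2-Ab1 (0.68) and H2-DMa (0.58). Without knockout ZT16 replicate 2, Timd4 (0.76), Adgre1 (0.78), C1qc (0.56) and Ciita (0.74) no longer passed at ZT16. The Marco call at ZT8 was lost without knockout ZT8 replicate 6 (1.42) or control ZT8 replicate 6 (1.46). Laptm5, Itgax and Cd14 passed at all 3 times whichever single array was left out. With 1 array left out at a time, the median ratio of the members stayed between 0.39 and 0.79 at ZT8, 0.68 and 0.95 at ZT12, and 0.64 and 0.93 at ZT16.

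**Figure D5:**
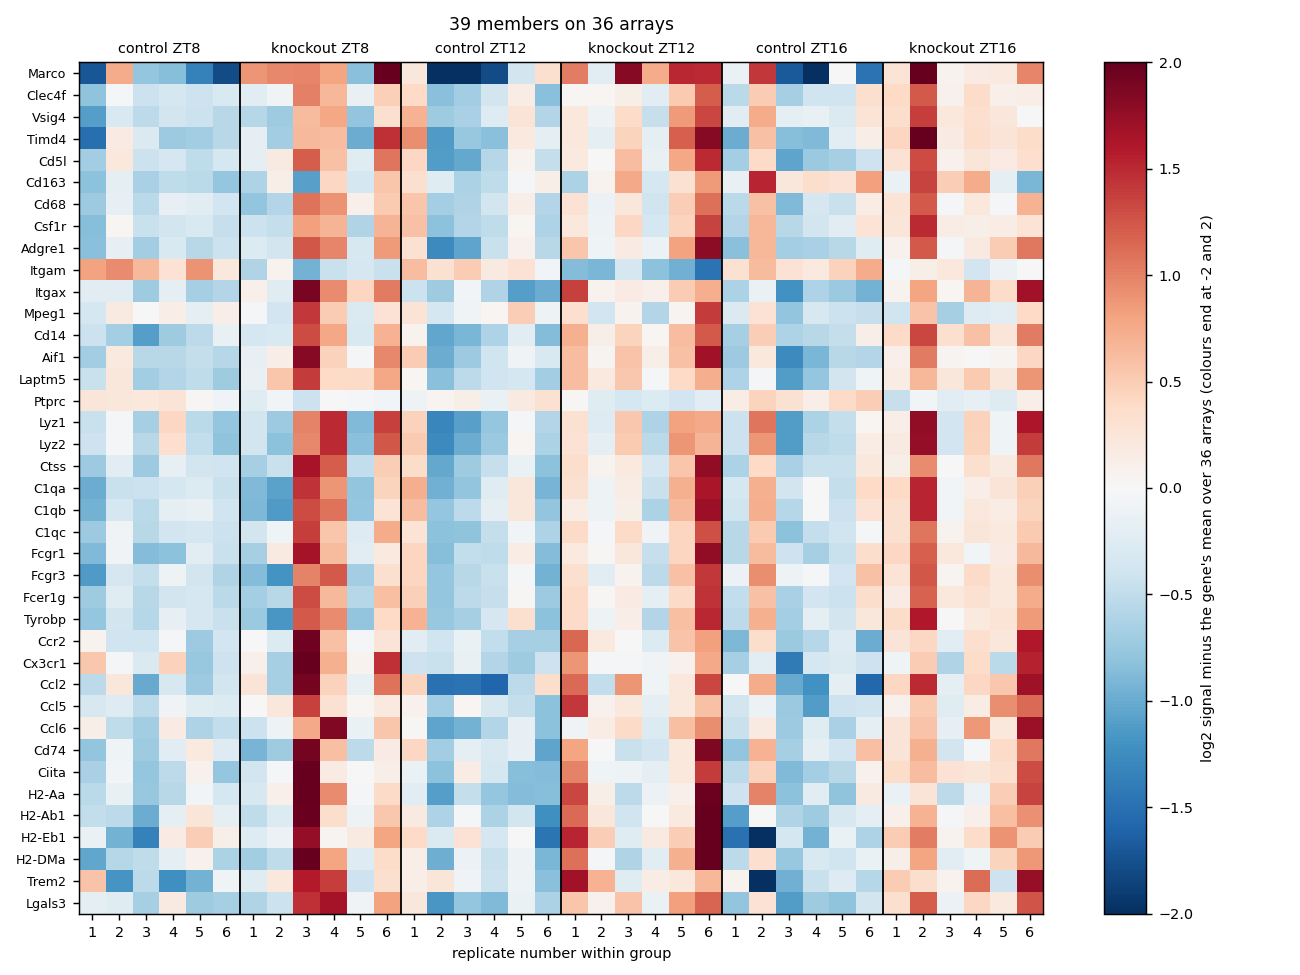
Level of 39 members (rows) on each of the 36 arrays (columns, by group and replicate number), as log2 signal minus the mean of the gene over all arrays, with colours ending at -2 and 2. Whole columns are red or blue, as in knockout ZT8 replicate 3, knockout ZT12 replicate 6, knockout ZT16 replicate 2 and control ZT16 replicate 2. Itgam and Ptprc are pale or blue in the knockout ZT8 and ZT12 columns where most rows are red.

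Within single wash batches, the labels' only batch, the median ratio of the 40 members was above 0 in all 9 combinations of batch and time. It ran from 0.27 to 2.06, where each group had only 1 to 3 arrays. The 2.06, in wash batch 3 at ZT12, rested on 1 knockout, replicate 6, which had the highest mean level of its group. The next highest median was 0.86. The fewest members with a ratio above 0 were 28 of 40, in wash batch 2 at ZT8, which had 1 knockout.

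Few of these genes were called between times of day, and as their ratios were imprecise, few calls do not show a lack of change. The log2 ratio of ZT16 to ZT8 was above 0 for 25 of the 40 in controls and 32 in knockouts, with medians of 0.13 and 0.17. In controls, 0 of the 40 were called between ZT8 and ZT12 (limma, 1 at an unadjusted p under 0.05, with 14.8% of all genes called) and 0 between ZT12 and ZT16 (2 at an unadjusted p under 0.05, 3.62% of all genes called). Between ZT8 and ZT16, 26.6% of all genes were called in controls and 28.9% in knockouts, and 1 member in each. In controls it was Cd163, which ran from 0.08 through 0.30 to 0.72 at ZT8, from 0.26 through 0.75 to 1.20 at ZT12 and from 0.74 through 1.21 to 2.41 at ZT16, a rise of 1.02 from ZT8 to ZT16 (SE 0.29, limma adjusted p 0.0089). The control arrays of ZT8 and ZT16 did not overlap. By the second brightest probe of Cd163, well above background on 10 arrays, the difference was 0.77 (SE 0.51), and by the mean of its probes 0.89, neither of which passed. In knockouts Cd163 ran from -0.19 through 0.77 to 1.44 at ZT8 and from -0.02 through 1.07 to 2.23 at ZT16 (0.48, limma adjusted p 0.24). The F test, taken over all 3 times together, did not detect a genotype effect on Cd163 that differed between times (limma F test adjusted p 0.56). In knockouts the member called was Itgam by its repeat probe, in each of the 3 comparisons of times (13.2% of all genes were called between ZT8 and ZT12 and 12.6% between ZT12 and ZT16). The second Fcgr3 probe was also called higher at ZT16 than at ZT8 in knockouts (0.68, limma adjusted p over all probes 0.017). By the brightest Fcgr3 probe this ratio was 0.62 and did not pass. The genotype effect differed between times for Itgam only (limma F test adjusted p 0.0489, 8.46% of all genes called). This call was lost in 28 of 36 fits without a single array, and by the other probe the F test adjusted p was 0.97. For the other 39 members no difference of the genotype effect between times was detected, so a call at 1 time and not at another does not show a change.

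Markers of some other cells were called higher too. For comparison, 16.7%, 19.6% and 20% of all genes were called higher at the 3 times, and 18.7%, 22.7% and 20.1% lower. Of 6 B cell genes, 4 were tested, and 2, 3 and 3 were called higher at the 3 times, among them Cd79b (0.82, 0.81 and 1.44) and, from ZT12, Ms4a1 (1.1 and 1.79). B cells also make MHC class II. The summed linear level of the B cell genes ran from 1.09 to 1.38 times the 75th percentile in ZT8 controls against 1.53 to 3.59 in ZT8 knockouts, from 0.64 to 1.54 against 1.08 to 2.70 at ZT12, and from 0.56 to 0.82 against 1.03 to 2.82 at ZT16, and Cd79a and Blk were well above background on at most 4 arrays. Of 8 T and NK cell genes, 7 were tested and 5, 5 and 6 were called higher (1 lower at ZT12), among them Cd3d (0.74, 0.90 and 0.66), Gzma (1.03, 1.12 and 1.21) and Klrb1c (0.62, 1.07 and 0.70). Their summed level overlapped between genotypes at each time, and such a sum weighs the brightest genes most. It ran from 23.0 to 38.3 in knockouts against 29.5 to 34.9 in controls at ZT8. At ZT12 it was 27.7 to 45.7 against 30.2 to 40.3, and at ZT16 34.7 to 48.2 against 24.3 to 37.3. Cd8a was not kept. Of 7 dendritic cell genes, 5 were tested: Clec9a was higher at all 3 times (0.98, 0.76 and 0.57), Zbtb46 at ZT12 (0.46), and Flt3 was lower (-0.65, -0.37 and -0.55). Their summed level ran from 201 to 297 in knockouts against 209 to 256 in controls at ZT8. At ZT12 it was 202 to 269 against 215 to 244, and at ZT16 233 to 265 against 219 to 264. Xcr1 and Cd209a were not kept. Of 8 neutrophil genes, 1, 0 and 2 were called higher and 0, 1 and 1 lower. Their summed level ran from 2.68 to 17.2 in knockouts against 2.69 to 4.98 in controls at ZT8. At ZT12 it was 2.64 to 7.59 against 3.42 to 5.34, and at ZT16 3.27 to 6.94 against 2.13 to 4.68. Of 8 stellate cell and fibroblast genes, 0, 3 and 3 were called higher. Their summed level ran from 42.4 to 113.6 in knockouts against 48.0 to 69.5 in controls at ZT8, and from 71.6 to 100.8 against 51.7 to 89.6 at ZT16. At ZT12 the knockouts, 72.8 to 84.6, lay above all controls, 39.7 to 70.6. Bile duct genes (5) gave 0, 0 and 1 higher and 0, 1 and 0 lower, and red cell genes (4 of 5 tested) 0, 2 and 2 higher and 1 lower at each time. Of 8 sinusoidal endothelial genes, 1 was called higher at ZT8 and 7 and 6 at ZT12 and ZT16, with medians of 0.05, 0.47 and 0.39. Their summed level at ZT12 was higher in every knockout, 43.3 to 60.5, than in any control, 33.0 to 42.4, and the genotypes overlapped at ZT8 (37.3 to 50 against 37.1 to 45.8) and at ZT16 (47.9 to 58.4 against 35.4 to 52.1). The summed level of the 7 hepatocyte genes was lower in every knockout than in any control at ZT12 (3065 to 3890 against 4277 to 4633) and at ZT16 (3463 to 3756 against 4194 to 4976), and overlapped at ZT8 (2581 to 4017 against 3768 to 4550). The part of these cells in the macrophage and class II results was not tested.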

How the data were processed

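Each of the 36 scanner files holds a 1-colour Agilent array (SurePrint G3 Mouse GE v2) of Cy3-labelled total RNA. Per the file headers, Feature Extraction 10.10.1.1 gave the deposited intensity values, with background subtraction and detrending in the processed signal. The authors' deposited table of log2 values, whose columns share one set of sorted values, was used as an alternative. The spot flags in the deposited files are other values of 0 or 1. Probe positions are on mm9 (NCBI37), per the file headers; the exon read by a probe was not determined.

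Here the 75th percentile of an array's non-control spots was subtracted from its log2 processed signals. Outlier spots were left out, spots of a probe averaged, and probes required to be well above background on 6 or more arrays (34771 probes, of which 93 with a missing value were dropped). The brightest probe stood for a gene. No spot was saturated. The number of arrays limits precision, as arrays give no counts. The fit was limma 3.58.1 in R 4.3.3 with 6 group means and wash batch (3 batches, each with all groups), 28 residual degrees of freedom, and Benjamini-Hochberg adjustment over all 22916 genes. The scripts were tested on simulated data. The labels number the samples as replicates without saying outright that each is a separate mouse; p-values measure the spread between these samples.

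Named with all values were Insr and the members with the 6 smallest p among those called in each genotype comparison, the F test, or the 4 smallest for ZT16 minus ZT8; up to 3 called genes of each other list were named. Members and lists were chosen with earlier results of these data known. Same-numbered replicates showed little shared deviation (median correlation 0.02 over 90 pairs, at most 0.23), so they were not treated as pairs. A pairing that leaves no such mark cannot be seen this way. Alternatives covered background correction, scaling, filter, probe choice, batch terms, weights and single arrays left out.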

Additional observations from a re-analysis of the deposited data

Results flagged for a closer look

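In 60 groups of 6 arrays (10 members in 6 groups), the highest or lowest array was checked for a gap to the rest above Dixon's critical share of the whole range, which chance gives in about 1 of 20 groups, or 3 of 60. It was found in 6, each time for the highest array. Control ZT8 replicate 2 had a level of -0.34 for Laptm5, against -1.28 to -1.01 on the other 5 arrays, and 2.13 for Aif1, against 1.23 to 1.46. Knockout ZT12 replicate 6 had 3.62 for Aif1, against 1.99 to 2.55, and 4.24 for C1qc, against 2.89 to 3.39. Knockout ZT16 replicate 2 had 7.30 for Marco, against 4.74 to 5.64, and knockout ZT8 replicate 3 had 2.18 for Ccl5, against 0.83 to 1.12. The genes of a sample vary together, so these are not 6 separate events.

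The genotype effect on Itgam, read by the probe with the CA run, differed between times by the F test (limma adjusted p 0.0489), with log2 ratios of -1.05, -1.24 and -0.53. The 47 probes with such a run had medians of -1.0, -1.15 and -0.52.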

How the results depend on the processing

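The members called at the 3 times (12, 23 and 18) numbered 6 to 16 at ZT8, 18 to 27 at ZT12 and 15 to 24 at ZT16 under the other settings. The share of all genes called moved as well, from 19.6% to 41.8% at ZT8, 23.8% to 49.5% at ZT12 and 22.4% to 47.1% at ZT16. At ZT8, 7 were called with no filter on dim probes and 6 when only the groups compared were fitted, and the share of all genes called fell there too, from 35.5% to 19.6% and 27.4%. With single arrays left out they numbered 5 to 20 at ZT8, 15 to 31 at ZT12 (31 without control ZT12 replicate 1) and 14 to 25 at ZT16 (25 without control ZT16 replicate 2). Same-numbered replicates correlated above 0.1 in 15 of 90 pairs, and the replicate block gave 8, 20 and 17. For ZT12 minus ZT8 in controls (0 members) array weights gave 1, and single arrays left out 0 to 0, as for ZT16 minus ZT12. ZT16 minus ZT8 in controls (1) became 0 under the mean of all kept probes and under the second brightest probe, and 3 when only the groups compared were fitted, and stayed at 1 to 1 with single arrays left out. In knockouts, ZT12 minus ZT8 (1) became 0 under the mean of all kept probes, no wash batch term, only the groups compared and no dinucleotide run, and 0 to 1 with single arrays left out. ZT16 minus ZT12 in knockouts (1) became 0 under the second brightest probe and no dinucleotide run, and stayed at 1 to 1. ZT16 minus ZT8 in knockouts (1) became 0 under median centring, no filter, the mean of all kept probes, no wash batch term, slide as a fixed block, array weights, only the groups compared and no dinucleotide run, and 0 to 1 with single arrays left out. Under the second brightest probe that count stayed at 1, although Itgam (0.016) no longer passed there. The F test (1) became 0 under median centring, no filter, the mean of all kept probes, no wash batch term, slide as a fixed block, the second brightest probe and no dinucleotide run, and 0 to 1 with single arrays left out. Of the 1839 genotype ratios under the other settings, 1691 kept direction and side of the threshold, 76 lost the call, 53 gained it and 19 changed sign. The mean of all kept probes turned Ptprc to 0.45, 0.67 and 0.45. The second brightest probe turned Ptprc to 0.86, 1.03 and 0.78, Itgam to 0.18, 0.048 and 0.15 and Csf1r to -0.40, -0.48 and -0.24, and the probe with no dinucleotide run gave the same values for Ptprc and Itgam. Normexp turned Gpnmb at ZT12 to -0.069. With single arrays left out, uncalled ratios at ZT8 turned for Gpnmb (range -0.50 to 0.78), Mpeg1 (-0.055 to 0.35) and Cd74 (-0.023 to 0.56), and at ZT12 for Mpeg1 (-0.087 to 0.32). Both probe alternatives named last were chosen after seeing the data; causes beyond the choice of probe were not tested.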

Other observations

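Most tested probes with a TG or CA run of 14 or more bases were called between the genotypes at each time. All 83 probes with a TG run of 14 or more bases were called higher in knockouts at ZT8 and ZT12, with ratios from 0.59 to 1.56 at ZT8, and 44 of 47 with a CA run of that length were called lower at ZT8. At ZT16 the medians were nearer 0 for both kinds, 0.34 and -0.52. Probes with CA runs of 8 to 13 bases had medians of -0.07, -0.20 and -0.06. No such run was in any probe of the other 38 members. The runs were looked up after the Itgam values were seen, and which transcripts bind these probes was not tested.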
